A study of Homo sapiens with 4 samples.

Results

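CIITA and 9 genes of the MHC class II pathway were followed across 4 Affymetrix arrays of the Hodgkin lymphoma cell line KM-H2. The 10 genes were CIITA, the class II chain genes HLA-DRA, HLA-DPA1, HLA-DPB1, HLA-DQA1 and HLA-DQB1, the peptide-loading genes HLA-DMA, HLA-DMB and HLA-DOB, and CD74. They were chosen by name from 19775 genes with a probe set of their own, and 27 of the 54675 probe sets on the array carried one of these symbols alone. A further 4 probe sets carried a member's symbol together with those of other class II genes, and these are given separately.

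Arrays came from 2 groups of the same cell line, 2 arrays of KM-H2 cells with siRNA knockdown of PTPN1 and 2 of KM-H2 cells given a non-silencing control, and the titles number them 1 and 2 within each group. PTPN1 removes phosphate from tyrosines, and JAK kinases are among its known substrates. Both arrays of a group are called technical replicates by the submitters, so SDs, SEs and p-values below measure the spread between arrays and not between cultures. No siRNA dose or time after transfection was at hand. All values are log2 RMA signals, normalized by the authors so that the arrays share nearly 1 distribution, with a median of 5.11 over all values. A probe set near or below that median may carry little specific signal, no detection calls were used, and signals of different probe sets cannot be set against each other as amounts of RNA. In bulk RNA, fewer cells with a transcript and less transcript per cell cannot be told apart.

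MHC class II molecules are pairs of an alpha and a beta chain that show peptides from the endosomal pathway to CD4+ T cells. CD74, the invariant chain, escorts newly made pairs and blocks their groove, HLA-DM exchanges its remnant for peptide, and HLA-DO restrains HLA-DM. CIITA does not bind DNA itself. It docks on RFX, CREB and NF-Y proteins assembled on the X and Y boxes of class II promoters and is needed for their transcription. It is induced by interferon gamma through JAK and STAT proteins, and it is active constitutively in B cells, the lineage from which Hodgkin cells derive. In KM-H2 the CIITA gene is known to be rearranged.

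Promoter windows are shown for 6 members because CIITA acts on class II genes through proteins bound to X and Y boxes. Those of HLA-DMB and HLA-DPA1 are not shown. RefSeq promoter windows on GRCh38.p14 were in the table used for 8 of the 10 members, all but CIITA and HLA-DRA. Each line holds 120 bases, from 164 to 45 bases before the annotated start, in the direction of the gene, with matches to CCNAGNNAC (the first part of the X box), TGATGATG (its last part) or ATTGG (the Y box core) on either strand in capitals. HLA-DQA1 and HLA-DPB1 show a Y box match only. X boxes with other letters would not be marked, so the lack of a match does not show that a promoter lacks an X box.
HLA-DOB (chr6:32817047-32817166, - strand): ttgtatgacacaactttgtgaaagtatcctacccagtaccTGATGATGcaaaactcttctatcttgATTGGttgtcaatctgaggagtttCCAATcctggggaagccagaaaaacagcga
HLA-DQA1 (chr6:32637242-32637361, + strand): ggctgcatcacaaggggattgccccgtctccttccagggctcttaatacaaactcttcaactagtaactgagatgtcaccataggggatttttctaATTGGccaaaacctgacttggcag
HLA-DQB1 (chr6:32666702-32666821, - strand): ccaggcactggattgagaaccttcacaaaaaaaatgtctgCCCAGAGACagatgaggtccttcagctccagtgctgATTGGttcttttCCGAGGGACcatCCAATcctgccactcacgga
HLA-DPB1 (chr6:33075826-33075945, + strand): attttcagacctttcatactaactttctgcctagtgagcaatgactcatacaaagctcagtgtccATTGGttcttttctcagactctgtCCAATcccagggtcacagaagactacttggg
HLA-DMA (chr6:32953142-32953261, - strand): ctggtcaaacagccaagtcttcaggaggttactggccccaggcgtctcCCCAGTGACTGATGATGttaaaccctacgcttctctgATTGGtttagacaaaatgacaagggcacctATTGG
CD74 (chr5:150412955-150413074, - strand): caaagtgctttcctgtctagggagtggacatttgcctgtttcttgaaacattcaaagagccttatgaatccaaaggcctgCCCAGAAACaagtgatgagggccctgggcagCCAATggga

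Of the 8 members with a window, all but HLA-DPA1 held ATTGG in the 250 bases before the start. These 7 compare with 32.0% of all 35116 RefSeq promoter windows. A member was counted if any of its windows matched, while the background counts every window. CCNAGNNAC was found in 5 of the 8, against 13.7% of all windows, and TGATGATG in 3, HLA-DOB, HLA-DMA and HLA-DMB, against 0.795%. In HLA-DMA and HLA-DMB both X box matches follow each other without a gap, as CCCAGTGACTGATGATG and CCTAGTAACTGATGATG. These letters were picked after the sequences had been read, and a match describes the sequence only.

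PTPN1 read 7.00 and 7.36 in the knockdown arrays, against 8.16 and 8.40 in the non-silencing arrays, by its brightest probe set. Both knockdown arrays lay below both non-silencing arrays, with 46.8% of the signal left (log2 difference -1.10, SE 0.18), although the limma adjusted p was 1.0. The other PTPN1 probe sets averaged below the median signal and differed by 0.01, -0.03 and -0.07, so the check rests on the brightest alone. Arrays with the same number were more alike than arrays of the same group, with Pearson's r of 0.993 and 0.994 across probe sets within numbers 1 and 2, against 0.989 between the knockdown arrays and 0.990 between the non-silencing arrays. The log2 difference between probe sets at the end and at the beginning of the beta-actin transcript, which depends on RNA integrity and amplification, went by number as well, at 1.33 and 0.969 in knockdown arrays 1 and 2, against 1.31 and 0.972 in non-silencing arrays 1 and 2. All 8 Hodgkin cell markers looked at, among them TNFRSF8 (CD30) and IRF4, averaged above the median signal. Their mean was 8.95 and 8.49 in the knockdown arrays, against 8.40 and 8.28 in the non-silencing arrays. Each of the 8 had a positive difference, against 48.2% of all genes. Both knockdown arrays were higher for 3 of the 8, against 12.4% of all genes, the largest being CCL17 (0.97) and CD40 (0.39). TRAF1 differed by 0.62 in number 1 and -0.08 in number 2. By array number, 2 minus 1, the 8 had a median of -0.35. Over 5 B cell markers the mean was 5.85 and 5.76 in the knockdown arrays, against 5.99 and 5.85 in the non-silencing arrays, with MS4A1 (CD20) at -0.42 (-0.80 in number 1, -0.05 in number 2, below the median signal), CD22 at -0.15 and PAX5 at 0.15. Markers of dendritic cells, which also make class II, ranged in group means from 3.53 to 5.33 in the knockdown arrays and from 3.56 to 5.46 in the non-silencing arrays, over 4 of 5 genes. The 3 macrophage markers CD14, CD163 and CSF1R differed by 0.32, 0.06 and -0.17, and of 3 T cell markers CD3D alone was bright, at 10.06 in the knockdown arrays and the non-silencing arrays. The part of other cell types in the results was not tested.

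CIITA was the member with the most negative difference. Its brightest probe set read 7.22 and 7.74 in knockdown arrays 1 and 2, against 7.71 and 8.22 in non-silencing arrays 1 and 2. Each knockdown array lay below the non-silencing array of its own number, with differences of -0.49 for number 1 and -0.48 for number 2, yet the groups overlapped, because knockdown array 2 stood just above non-silencing array 1. The mean difference was -0.48 (SE 0.25, 95% interval -1.13 to 0.16), which left 71.6% of the signal, and it did not pass the test (limma adjusted p = 1.0). It was -0.22 without knockdown array 1 and -0.23 without non-silencing array 2, and -0.74 without either of the others. The other 2 CIITA probe sets averaged 4.76 and 4.44 in the knockdown arrays and 4.84 and 4.38 in the non-silencing arrays, below the median signal, and differed by -0.08 and 0.06. The mean over all 3 probe sets differed by -0.17. Where the CIITA probes lie relative to the rearrangement, and so whether they read intact or fused CIITA, was not tested.

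PIERCE2 was looked at as the likely fusion partner of CIITA in KM-H2, an assignment that the files do not record, and was measured by 1 probe set. It read 10.54 and 10.41 in the knockdown arrays, against 10.67 and 10.68 in the non-silencing arrays. Both knockdown arrays lay below both non-silencing arrays, with a mean difference of -0.20 (SE 0.13, 95% interval -0.53 to 0.13), and the limma adjusted p was 1.0. Its signal in the non-silencing arrays exceeded that of 96.3% of probe sets. Whether it is fused here, and which transcript its probes read, was not tested.

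The class II chain genes had bright probe sets in these cells, and none of them passed the test between the groups. HLA-DRA, the nearly monomorphic alpha chain of HLA-DR, read 12.55 and 13.05 in the knockdown arrays, against 12.63 and 13.08 in the non-silencing arrays. Its non-silencing mean exceeded 99.4% of probe sets. The arrays separated by number and not by group, with both arrays numbered 2 above both numbered 1. Its difference was -0.06 (SE 0.24, 95% interval -0.66 to 0.55), and its second probe set, at 12.42 and 12.99 in the knockdown arrays against 12.48 and 13.02 in the non-silencing arrays, differed by -0.05.

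**Figure D1:**
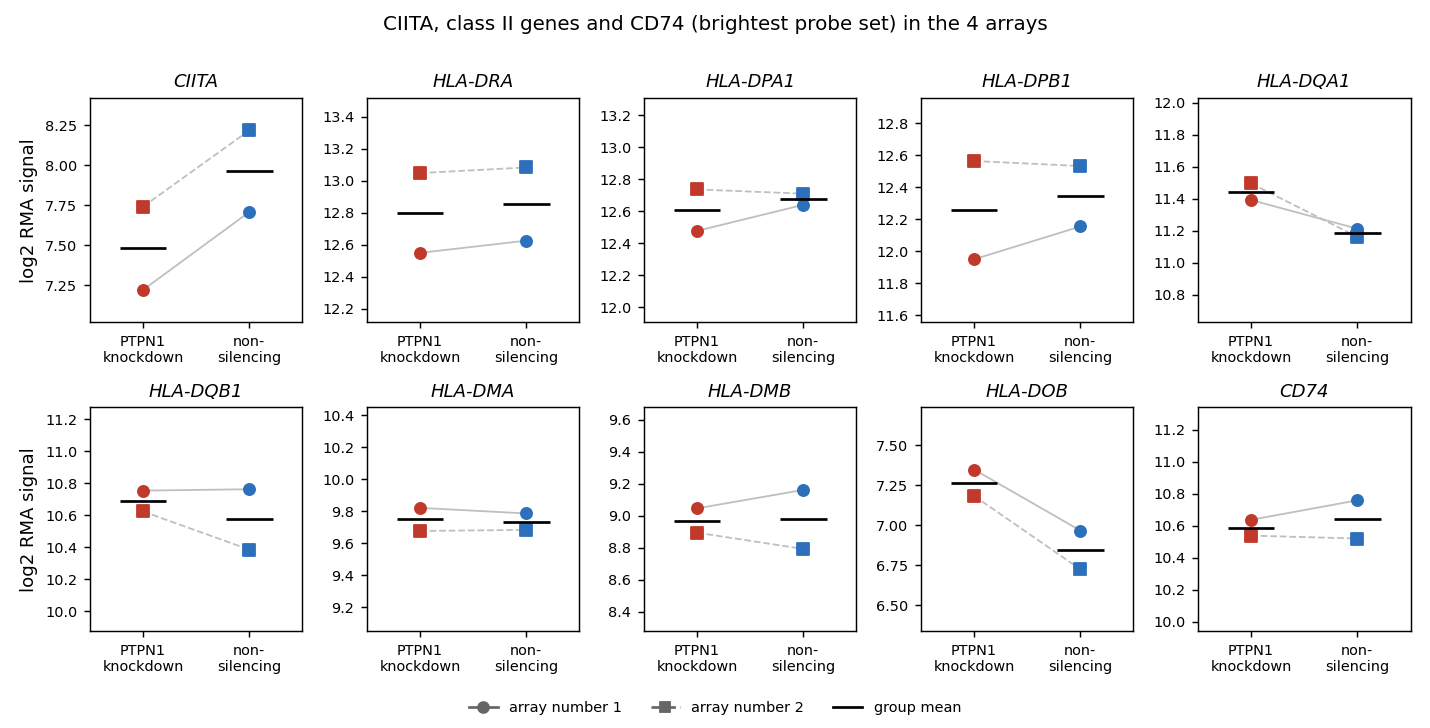
Log2 RMA signal of the brightest probe set of each of the 10 genes in the PTPN1 knockdown and non-silencing arrays. Points are arrays, grey lines join arrays of the same number, black bars are group means, and every panel spans 1.4 log2 units. CIITA slopes the same way in both numbers, HLA-DOB and HLA-DQA1 slope the other way, and HLA-DRA and HLA-DPB1 separate by array number.

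HLA-DPA1 and HLA-DPB1 encode the chains of HLA-DP. HLA-DPA1 read 12.48 and 12.74 in the knockdown arrays, against 12.64 and 12.71 in the non-silencing arrays, a difference of -0.07 (SE 0.15, 95% interval -0.44 to 0.31). HLA-DPB1 read 11.95 and 12.56 in the knockdown arrays, against 12.16 and 12.53 in the non-silencing arrays, a difference of -0.09 (SE 0.25, 95% interval -0.73 to 0.55). For both genes the sign differed between the numbers, negative for number 1 (-0.16 and -0.21) and positive for number 2 (0.03 and 0.03). The remaining HLA-DPA1 probe sets differed by -0.06 and 0.15, and the dimmer HLA-DPB1 probe set, at 5.65 in the knockdown arrays and 5.79 in the non-silencing arrays, by -0.14.

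HLA-DQA1, the alpha chain of HLA-DQ, was the only one of the 5 class II chains whose brightest probe set was apart between the groups. It read 11.39 and 11.50 in the knockdown arrays, against 11.21 and 11.16 in the non-silencing arrays, with differences of 0.18 and 0.33 within numbers 1 and 2. The mean difference of 0.26 (SE 0.13, 95% interval -0.07 to 0.58) did not pass the test (limma adjusted p = 1.0). A brighter probe set that HLA-DQA1 shares with HLA-DQA2 read 12.18 and 12.37 in the knockdown arrays, against 12.32 and 12.38 in the non-silencing arrays, a difference of -0.08. The 2 HLA-DQA1 probe sets below the median signal went the other way, at -0.53 and -0.20, the first of them at 4.07 and 4.27 in the knockdown arrays against 5.14 and 4.27 in the non-silencing arrays. With the mean of its 3 probe sets HLA-DQA1 differed by -0.16, so the sign for this gene rests on the choice of probe set.

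HLA-DQB1, the partner chain, had 7 probe sets of its own. The 4 brightest were flat to slightly positive, at 0.11, 0.12, 0.12 and 0.02, and the 3 dimmest were negative, at -0.13, -0.10 and -0.41. The brightest read 10.75 and 10.62 in the knockdown arrays, against 10.76 and 10.38 in the non-silencing arrays, so the groups overlapped (SE 0.17, 95% interval -0.32 to 0.55). The names of 5 of these probe sets, the 4 brightest among them, end in _x_at, a suffix the manufacturer gives where some probes match other transcripts as well, and the HLA genes resemble each other closely. Of the probe sets shared between HLA-DQB1 and HLA-DRB genes, the brightest read 13.09 and 13.16 in the knockdown arrays, against 12.92 and 12.98 in the non-silencing arrays. That difference of 0.17 and those of the other two (0.19 and 0.18) were positive. Both knockdown arrays were higher for 2 of the 4 shared probe sets, against 13.4% of all probe sets.

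The chains of HLA-DM differed little between the groups. HLA-DMA read 9.82 and 9.68 in the knockdown arrays, against 9.79 and 9.68 in the non-silencing arrays, a difference of 0.01 (SE 0.13, 95% interval -0.33 to 0.35). HLA-DMB read 9.05 and 8.89 in the knockdown arrays, against 9.16 and 8.79 in the non-silencing arrays, a difference of -0.0070 (SE 0.17, 95% interval -0.45 to 0.43). The groups overlapped for both chains.

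HLA-DOB, the beta chain of the HLA-DM inhibitor HLA-DO, had the largest positive difference of the 10 genes. It read 7.35 and 7.18 in the knockdown arrays, against 6.97 and 6.72 in the non-silencing arrays, and both knockdown arrays lay above both non-silencing arrays. Within numbers 1 and 2 the differences were 0.38 and 0.46. The mean was 0.42 (SE 0.15, 95% interval 0.04 to 0.81), or 134% of the non-silencing signal, and it stayed between 0.30 and 0.54 when 1 array was left out. Its unadjusted limma p of 0.0374 did not survive adjustment over all probe sets (adjusted p = 1.0). The unadjusted p also depended on the variance model, at 0.0505 with dim probe sets filtered out, 0.065 with a trend and robust estimation and 0.103 without moderation, where the interval includes 0. The second HLA-DOB probe set lay below the median signal, at 4.83 in the knockdown arrays and 4.82 in the non-silencing arrays, and the mean of both probe sets differed by 0.22.

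CD74 read 10.64 and 10.54 in the knockdown arrays, against 10.76 and 10.52 in the non-silencing arrays, by its brightest probe set. The groups overlapped, and the difference of -0.05 (SE 0.15, 95% interval -0.42 to 0.32) had opposite signs in the numbers, at -0.12 and 0.02. Its other two probe sets averaged 5.77 and 5.43 in the knockdown arrays and 5.68 and 5.43 in the non-silencing arrays.

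**Figure D2:**
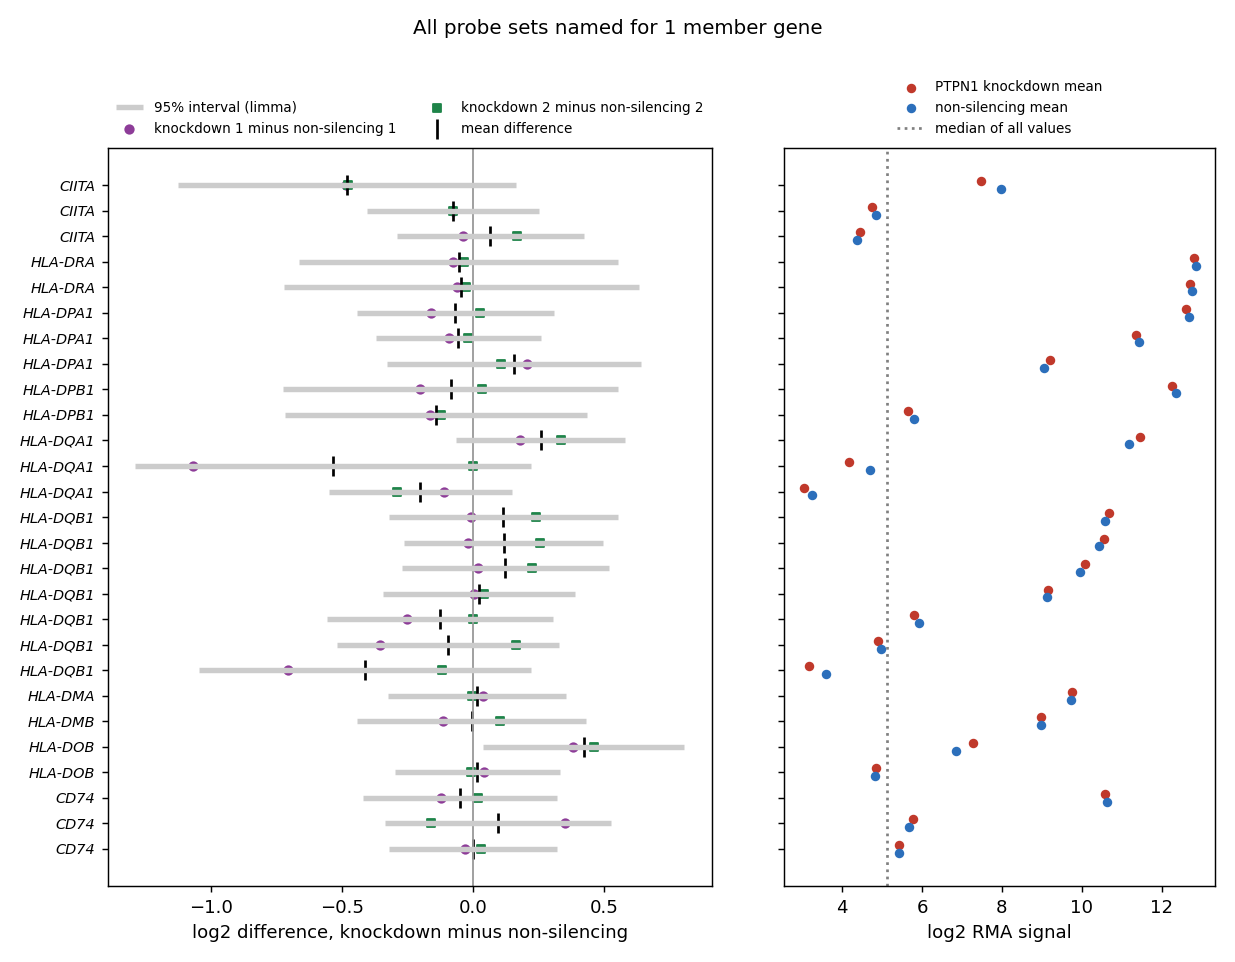
All 27 probe sets named for 1 member gene, ordered by gene and then by signal. On the left are the log2 differences, knockdown minus non-silencing, within array numbers 1 and 2, their mean and the 95% interval from limma. On the right are the group means of the log2 RMA signal, with the median of all values dotted. In this fit the HLA-DOB interval alone lies clear of 0, and the widest gaps between the numbers are in dim HLA-DQA1 and HLA-DQB1 probe sets.

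In limma, 0 of the 27 member probe sets had an adjusted p under 0.05, as did 0 of all 54675 (0.0%), and an unmoderated linear model also called 0. At an unadjusted p under 0.05 there was 1 member probe set, that of HLA-DOB, or 1369 (2.5%) of all probe sets. By brightest probe set 6 of the 10 genes had a negative difference, against 51.8% of all genes, and the median was -0.03, against -0.0066 over all genes. Both knockdown arrays lay above both non-silencing arrays for 2 of the 10, HLA-DOB and HLA-DQA1, against 12.4% of all genes. The other 8 overlapped, and arrays were apart in either direction for 27.4% of all genes. These shares are near the background. Of the 27 probe sets, 7 averaged below the median signal, and these held 3 of the 4 whose knockdown arrays were both lower (15.3% of all probe sets). Both knockdown arrays were higher for 2 of the 27, against 13.4%. Across the 10 genes the median was -0.10 within number 1 and 0.03 within number 2, and it was 0.06, 0.03 and 0.07 without knockdown array 1, knockdown array 2 or non-silencing array 1.

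Array number separated CIITA and HLA-DRA. In a fit with terms for group and number, CIITA was 0.52 higher in arrays numbered 2 than in those numbered 1 (SE 0.11, limma adjusted p = 0.0372). HLA-DRA was higher by 0.48 and 0.55 in its probe sets (SE 0.11 each, limma adjusted p = 0.0464 and 0.0309). HLA-DPB1 was 0.50 higher and just missed (limma adjusted p = 0.0505). These 3 of 27 member probe sets compare with 4.82% of all probe sets called higher in number 2 and 8.08% called in either direction, and 0 members were called lower. An unmoderated linear model called 0 of the 27. HLA-DMB, HLA-DQB1, HLA-DOB, CD74 and HLA-DMA lay on the other side, between -0.26 and -0.12, and did not pass. The beta-actin measure moved with the number as well, and its part in these differences was not tested.

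**Figure D3:**
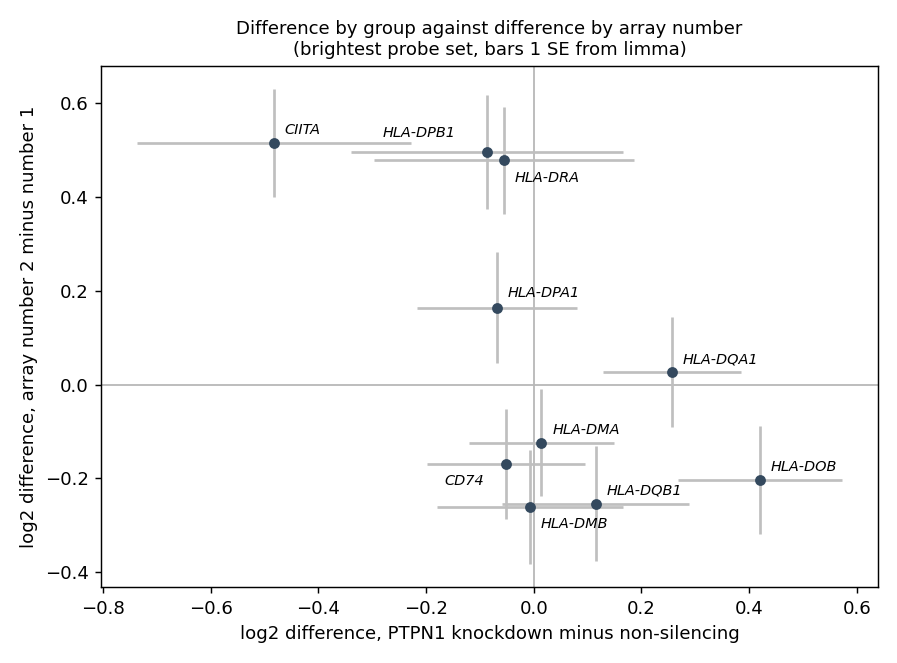
Log2 difference by group (knockdown minus non-silencing, horizontal) against log2 difference by array number (2 minus 1, vertical) for the brightest probe set of the 10 genes, with bars of 1 SE. CIITA, HLA-DRA and HLA-DPB1 share a number difference near 0.5, but only CIITA also lies far to the left.

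Genes whose profile over the 4 arrays came closest to CIITA were MINDY3, GRB14, SCYL3, ZEB1 and DHRS12. The measure was the root mean square difference between log2 values centred on each gene's mean, over the 9888 genes at or above the median level of all genes, and it was 0.021 for MINDY3 and 0.058 for DHRS12. MINDY3, which encodes a deubiquitinase, read 8.09 and 8.59 in the knockdown arrays, against 8.61 and 9.10 in the non-silencing arrays. ZEB1, a transcriptional repressor, read 9.32 and 9.95 in the knockdown arrays, against 9.82 and 10.29 in the non-silencing arrays. The nearest class II genes were HLA-DPB1 (0.21) and HLA-DRA (0.21), with 590 and 714 genes nearer, and the farthest was HLA-DOB (0.58). With 4 arrays this likeness is a description of shared group and number differences.

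Proteins that assemble with CIITA at class II promoters, the X and Y box factors and acetyltransferases, were measured by 10 of the 11 genes listed. None passed the test, 8 had a positive difference, against 48.2% of all genes, and the median was 0.05. That median was -0.02 within number 1 and 0.18 within number 2. Both knockdown arrays were higher for 3 of the 10, against 12.4% of all genes. NFYB, a subunit of the Y box factor NF-Y, read 9.03 and 9.20 in the knockdown arrays, against 8.72 and 8.95 in the non-silencing arrays, a difference of 0.28 (SE 0.15). CREBBP, a histone acetyltransferase that works with CIITA, differed by 0.23 (SE 0.14). RFX5, a subunit of the X box factor, read 10.34 and 10.33 in the knockdown arrays, against 10.50 and 10.37 in the non-silencing arrays, a difference of -0.10 (SE 0.13).

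Upstream regulators of CIITA were measured by 13 of 14 genes listed, with a median of 0.11 and none past the test. Of the 13, 10 had a positive difference, against 48.2% of all genes. Both knockdown arrays were higher for 3 of them, against 12.4% of all genes. IRF1, which activates the interferon-responsive CIITA promoter, read 8.78 and 8.05 in the knockdown arrays, against 7.89 and 7.86 in the non-silencing arrays. Most of its difference of 0.55 (SE 0.26) came from number 1 (0.90, against 0.19 in number 2). SOCS1, an inhibitor of JAK kinases whose gene lies near CIITA, differed by 0.13 (SE 0.13). PRDM1, a repressor of CIITA in plasma cells, differed by -0.22 (SE 0.14) at a signal of 5.62 in the knockdown arrays and 5.84 in the non-silencing arrays. The contrast between CIITA and these regulators was not tested.

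Class II peptide loading and turnover genes were measured by 11 of 12 genes listed, with a median of 0.08 and none past the test. Differences were positive for 8 of the 11, against 48.2% of all genes. The median was -0.01 within number 1 and 0.15 within number 2. CTSL and CTSV, lysosomal proteases, differed by 0.23 and 0.16 (SE 0.15 and 0.14), at signals from 4.58 to 5.18 that lie around the median. CTSS, the protease that trims CD74 in B cells and dendritic cells, read 9.56 and 9.63 in the knockdown arrays, against 9.44 and 9.83 in the non-silencing arrays. LGMN, another lysosomal protease, was 1.24 higher in arrays numbered 2 (10.54 and 10.31) than in those numbered 1 (9.10 and 9.27), with a limma adjusted p of 0.00548. The values of CTSS and LGMN were known when they were picked. Of the class II genes outside the 10, 5 of 8 listed were measured, with a median of 0.03 and none past the test. Differences were positive for 4 of the 5, against 48.2% of all genes. HLA-DRB1 alone had both knockdown arrays higher, at 11.31 and 11.38 against 11.25 and 11.28 in the non-silencing arrays, a difference of 0.08 (SE 0.13). HLA-DRB4 (-0.12) and HLA-DOA (0.19) overlapped between the groups and were picked with their values known.

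**Figure D4:**
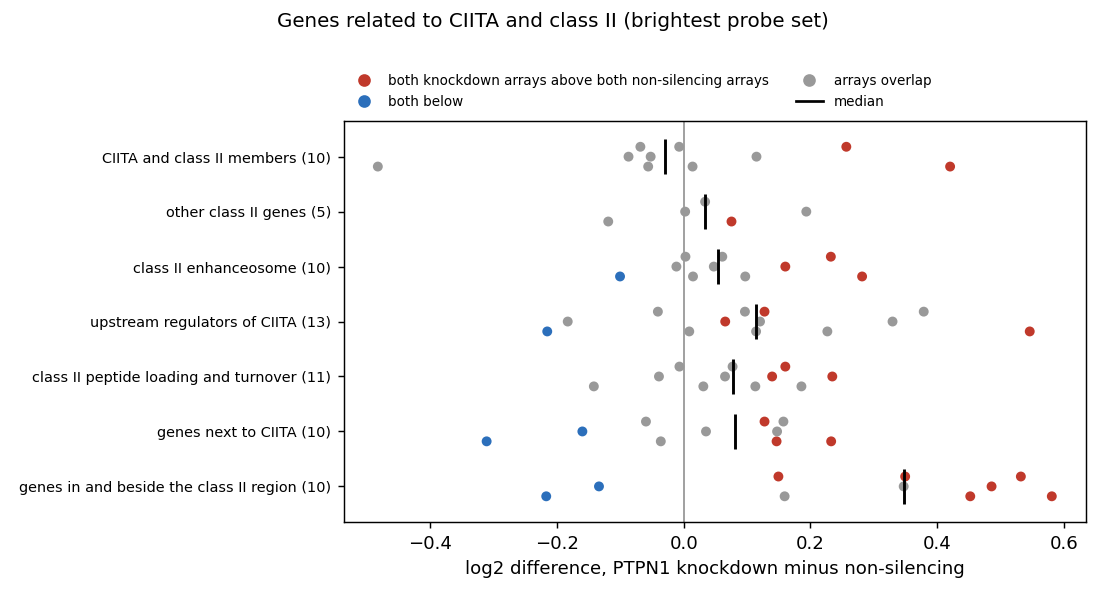
Log2 differences, knockdown minus non-silencing, of the brightest probe set per gene in 7 lists, with the number of measured genes in parentheses and the median as a black bar. Red marks genes with both knockdown arrays above both non-silencing arrays, blue both below and grey overlap. The bottom list, with TAP1 and TAP2, has a median of 0.35, against -0.03 for CIITA and the class II members.

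The 10 listed genes around CIITA had a median of 0.08 and none past the test. There were 6 positive and 4 negative differences, against 48.2% positive among all genes. RMI2, which encodes a subunit of the BLM helicase complex, was the lowest, at 9.90 and 10.30 in the knockdown arrays against 10.31 and 10.51 in the non-silencing arrays, a difference of -0.31 (SE 0.18). The nearest measured genes on each side, TVP23A and DEXI, differed by 0.23 and 0.16, of which TVP23A lay below the median signal, as did PRM1 (0.15) and TNP2 (-0.16). DEXI was picked with its value known.

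Within the class II region the members lie on both sides of a block of class I processing genes, from TAP2 to PSMB9. TAP1 and TAP2, the peptide transporter of the class I pathway, differed by 0.58 (SE 0.15) and 0.53 (SE 0.15), with limma adjusted p of 1.0 each. TAP1 read 11.16 and 10.87 in the knockdown arrays, against 10.42 and 10.45 in the non-silencing arrays. HLA-DOB, at 0.42, is the measured gene next to TAP2 in RefSeq order, while HLA-DMB and HLA-DMA, beyond PSMB9, stood at -0.0070 and 0.01, and BRD2, the next gene, at 0.49. HLA-DPA1 and HLA-DPB1 at the far end stood at -0.07 and -0.09. The 10 listed genes in and beside the region had a median of 0.35 and 8 positive differences, against 48.2% of all genes. Of the 10, 4 had an unadjusted limma p under 0.05, against 2.65% of all genes, and 0 passed adjustment. The whole list was chosen with earlier results of these data known, so these shares describe it and test nothing. BTNL2 (-0.22) and COL11A2 (-0.13) were the negative ones. BRD2 and PSMB9 were picked with their values known. Differences between neighbouring genes were not tested.

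**Figure D5:**
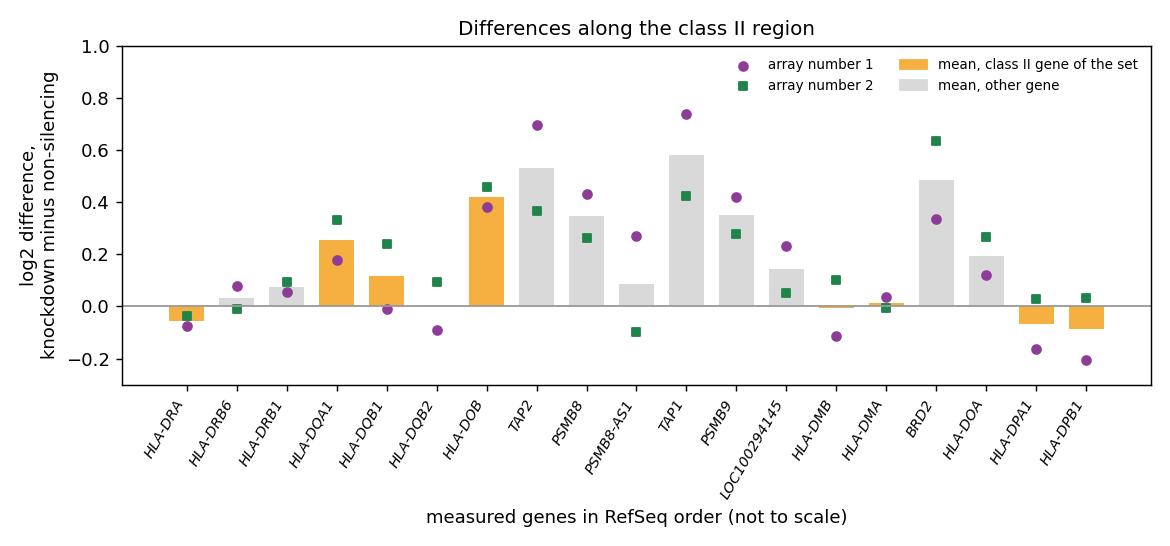
Log2 differences, knockdown minus non-silencing, of 19 measured genes from HLA-DRA to HLA-DPB1 in RefSeq order. Bars are means, orange for the class II genes of the set and grey for other genes, and points are the differences within array numbers 1 and 2. The run from HLA-DOB to PSMB9 holds 5 means above 0.3, and PSMB8-AS1 at 0.09. Outside that run BRD2 stands at 0.49 and HLA-DQA1 at 0.26, while HLA-DMB, HLA-DMA and both ends of the region lie near 0.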

How the data were processed

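Total RNA of KM-H2 cells was measured on 4 expression arrays after 2 cycles of cRNA amplification, per the labels' protocols. The authors deposited log2 signals, and per the submitters' processing notes these come from RMA, a method that corrects background, normalizes arrays to each other and summarizes probes. Its software version is not stated there. The values were used without further normalization.

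Probe sets were named from the platform's annotation, matched by gene identifier to a RefSeq table (GRCh38.p14). Of 54675 probe sets, 41097 had 1 symbol, 1801 several and 11777 none. Each gene was represented by its brightest probe set over the 4 arrays, which gave 19775 genes. Knockdown was compared with non-silencing over all probe sets in limma 3.58.1 (R 4.3.3, lmFit and eBayes, no covariate, two-sided), with p-values adjusted by the Benjamini-Hochberg method and a threshold of 0.05. Array number was tested in a fit with group and number. The fit was run on simulated arrays with known changes as a check of the code, which does not measure its error rates on these arrays. No filter on dim probe sets was applied. The number of arrays limits the precision.

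The members and lists were chosen with earlier results of these data known. From each list the text names up to 2 genes per direction with the largest differences among those whose arrays did not overlap, others being marked. Genes of the lists without a probe set of their own were not used here. Alternatives were another normalization, filters, variance models, probe set choices, a replicate block and leaving out each array.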

Additional observations from a re-analysis of the deposited data

How the results depend on the processing

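None of the 10 genes passed the test under any of the 12 alternatives. The lowest limma adjusted p, 0.257, was that of CIITA with the replicate block. CIITA and HLA-DOB kept their sign in all 12, and HLA-DQA1 in all but 1. Of 120 gene values, 17 changed sign. These were HLA-DMA with a second quantile normalization (-0.0052), HLA-DMB with arrays centred on their medians (0.011), and, averaging every probe set of a gene, CD74 (0.014), HLA-DPA1 (0.010), HLA-DQA1 (-0.16) and HLA-DQB1 (-0.038). The others came from leaving out 1 array, where HLA-DRA ranged from -0.31 to 0.19, HLA-DPB1 from -0.39 to 0.22, HLA-DPA1 from -0.20 to 0.061, HLA-DQB1 from -0.074 to 0.30, HLA-DMB from -0.19 to 0.18, HLA-DMA from -0.058 to 0.086 and CD74 from -0.17 to 0.067. The median of the 10 genes then ranged from -0.035 to 0.066, and calls over all probe sets from 0 to 1. The cause was not tested.

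With the replicate block the brightest PTPN1 probe set passed (limma adjusted p = 0.0154, differences of -1.16 and -1.03 within numbers 1 and 2). In that fit 164 of all probe sets (0.3%) were called, 0 of them members. An unadjusted limma p under 0.05 was reached by 4 of the 27 member probe sets, against 4963 of all 54675. Those 4 were the brightest of CIITA and HLA-DOB and dim probe sets of HLA-DQA1 and HLA-DQB1. Same-numbered arrays deviated together (Pearson's r 0.648 across genes), but nothing in the labels says that a number marks a batch. Of the 27 probe sets named for members, 3 differed by array number, against 6 with a trend and robust estimation and 0 without moderation. The filter on dim probe sets left 20 of them, of which 5 differed. Shares over all probe sets were not computed for these alternatives, so these counts cannot be set against a background. With 2 technical arrays in each group, 95% intervals of all member probe sets but the brighter one of HLA-DOB included 0 in limma's default fit.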
